A study of Mus musculus with 12 samples.

Results

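Neuregulin and ErbB signalling was followed through 8 genes, 4 ligands (Nrg1, Nrg2, Nrg4 and Hbegf) and 4 receptors (Erbb2, Erbb3, Erbb4 and Egfr), which were taken by gene name from a table of 40800 genes. Each name matched 1 gene, and 7 of the 8 had enough counts to be tested, Nrg2 being the exception. Bulk RNA sequencing had been done on heart ventricles of mouse embryos at embryonic day 12.5. There were 6 control libraries and 6 libraries labelled with the genotype Wnt gain of function, a state in which the Wnt pathway is overactive. The labels name neither the allele nor the Cre driver behind the gain of function, nor what the controls carry, nor how many embryos went into a library. P-values therefore measure the spread between these libraries, which may be technical. Library totals ran from 10130088 to 17526325 counts in the control group and from 12127026 to 17184662 in the other.

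Neuregulins are ligands with an EGF-like domain that bind ErbB3 or ErbB4. ErbB2 binds no known ligand and acts as their partner, ErbB3 has an impaired kinase and signals through its partner, and HB-EGF binds both EGFR and ErbB4. In the embryonic heart, neuregulin 1 made by the endocardium reaches ErbB2 and ErbB4 on the cardiomyocytes beneath it, and trabeculae fail to form in mice that lack any of the 3. ErbB3 is best known there for its part in the endocardial cushions and in the neural crest lineage.

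Levels are given as CPM, a gene's counts scaled to the size of its library. Axin2, a standard readout of Wnt activity, lay between 1.39 and 4.13 CPM in the control libraries. It was at 14.9 to 26.0 CPM in 5 of the Wnt gain-of-function libraries and at 3.77 CPM in the library labelled replicate 5 of that group, within the control range. Axin2 thus goes against the genotype label of that library, and whether the label holds could not be settled here. The 12 libraries were also cut into 3 sets by a clustering of their deviations from the group means. The number of sets was imposed, and each set of 4 had 2 control and 2 Wnt gain-of-function libraries. Set 1 held control 1 and 6 with Wnt gain-of-function 5 and 6, set 2 control 2 and 3 with 1 and 2, and set 3 control 4 and 5 with 3 and 4. The labels name no such sets. Correlations of the deviations were 0.36 to 0.60 within sets 2 and 3 but -0.08 to 0.13 within set 1, whose libraries were thus little alike. In 3 pairs of libraries, namely control 2 and 3, Wnt gain-of-function 1 and 2, and 3 and 4 of that group, the mean chi-square per gene was 3.11 to 3.37, against 13.0 to 109.9 for the other 63 pairs. The libraries of these 3 pairs may not be separate samples. Each SD and test with n = 6 counts them as separate, and its p-value is too small if they are not. With each pair summed there were 5 control and 4 Wnt gain-of-function libraries, and edgeR called 1 gene of all tested, against 74. Results are given below also without replicate 5, within the sets and with these pairs summed, where this changes them. Cardiomyocyte markers were abundant in all libraries, with Actc1 at a mean of 9720 CPM or more in each group, as fits the labelled tissue.

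**Figure D1:**
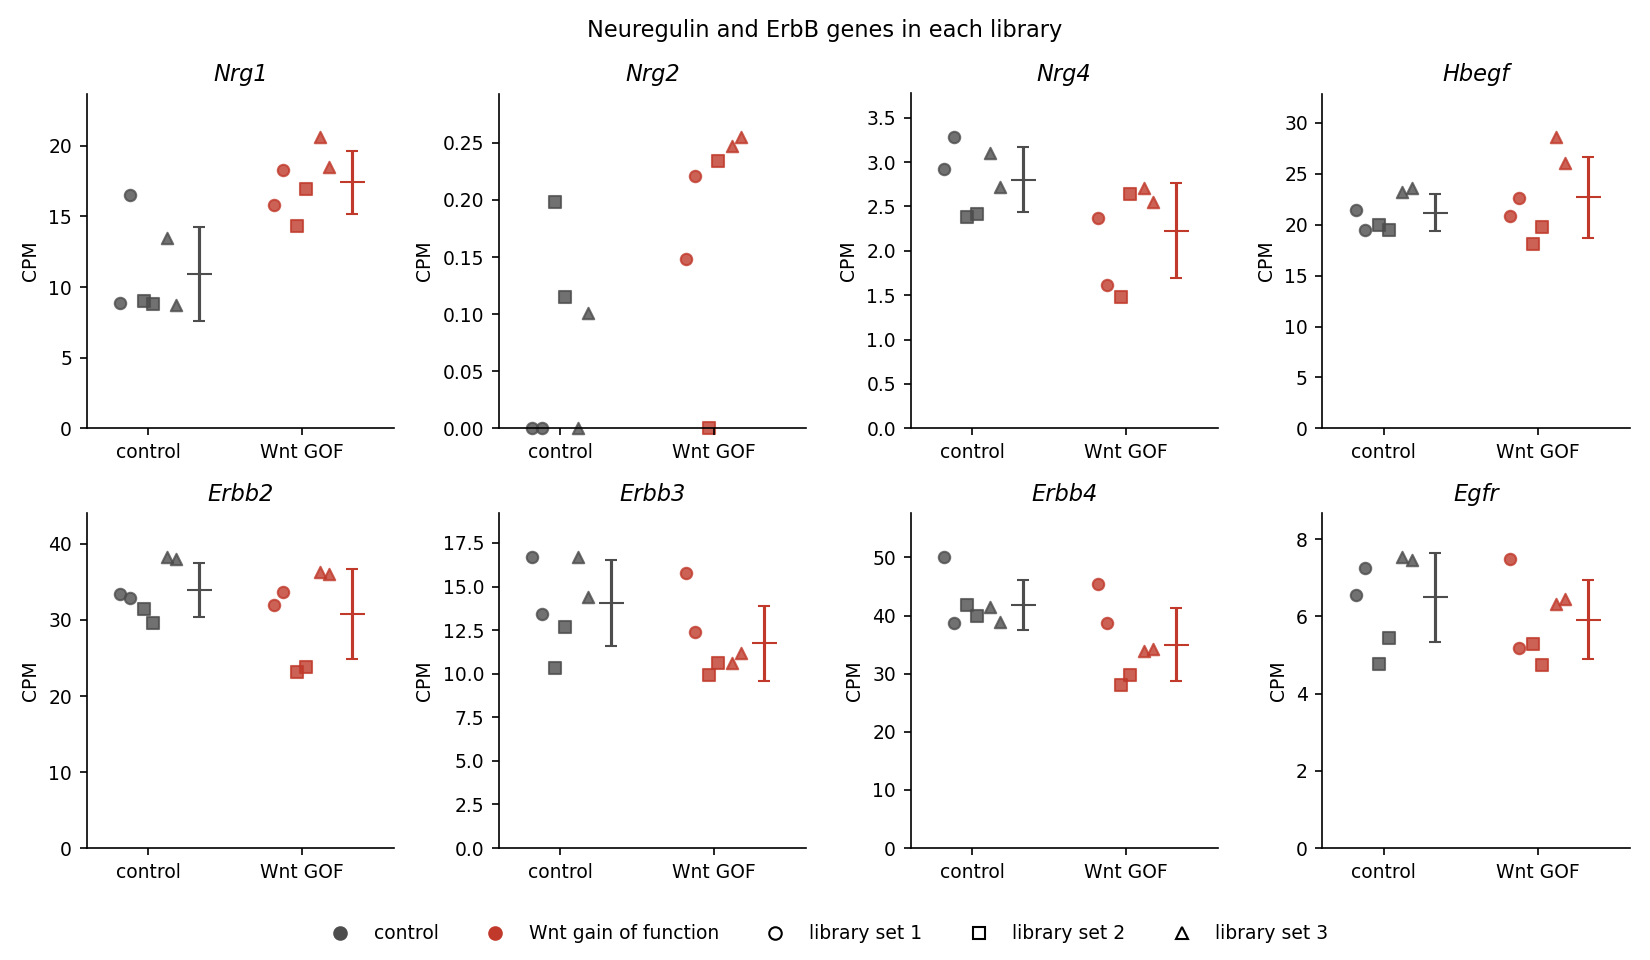
CPM of each of the 8 genes in each library, by group (control, grey; Wnt gain of function, red) and library set (circle, square, triangle), with the mean and SD of the 6 libraries at the right of each group; for Nrg2 the points are shown alone. Nrg1 was higher in all 6 Wnt gain-of-function libraries than in 5 of the 6 control libraries, and Erbb4 was below the lowest control in 5 of 6.

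Nrg1, the ligand on which trabeculation depends, was at 8.85, 9.02, 8.79, 13.5, 8.76 and 16.5 CPM in control 1 to 6. In Wnt gain-of-function 1 to 6 it was at 14.3, 16.9, 20.6, 18.5, 15.8 and 18.3 CPM. All Wnt gain-of-function libraries thus lay above 5 of the 6 control libraries, and the groups overlapped through control 6 alone, which 4 of the 6 exceeded. The library labelled replicate 5, where Axin2 was at the control level, had the second lowest Nrg1 of its group, above 5 of the 6 controls and below control 6. The means were 10.9 ± 3.32 and 17.4 ± 2.23 CPM (SD, n = 6), a log2 fold change of 0.67 ± 0.166 (SE) with a 95% interval from 0.32 to 1.02. This did not pass the test over all genes, with an adjusted p of 0.13 and an unadjusted p of 0.001 in edgeR's quasi-likelihood test.

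Whether Nrg1 was called depended on the treatment of the libraries, while the size of the difference moved little. Without control 6 its log2 fold change was 0.83 and edgeR called it (adjusted p = 0.0209), along with 0.477% of the genes tested there. A block term for the library sets also gave a call in edgeR (0.67, adjusted p = 0.0242), where p-values can be too small because the sets were found in these same libraries. DESeq2 called it on all 12 libraries (adjusted p = 0.0184). Over 22 alternatives the log2 fold change was 0.61 to 0.83 and the adjusted p 0.0184 to 0.709, the last with the closest pairs summed. Without Wnt gain-of-function replicate 5 it was 0.69 (edgeR adjusted p = 0.09). The authors' deposited table lists a log2 fold change of 0.692 and an adjusted p of 0.163 for Nrg1. That table holds 27743 genes, 36 of them with an adjusted p under 0.05, against 14774 genes tested and 74 called here by edgeR.

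Within the sets, both Wnt gain-of-function libraries exceeded both controls in sets 2 and 3. Set 2 is made of the close pairs control 2 and 3 and Wnt gain-of-function 1 and 2. Wnt gain-of-function 3 and 4, in set 3, are a close pair as well. If the libraries of a pair are not separate samples, these within-set comparisons do not repeat the difference in separate samples. The group means of the sets were 8.91 against 15.6 CPM in set 2 and 11.1 against 19.6 CPM in set 3, log2 ratios of 0.81 in both. Set 1, which holds control 6 and Wnt gain-of-function 5, had 12.7 against 17.1 CPM, a log2 ratio of 0.43 with overlap.

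**Figure D2:**
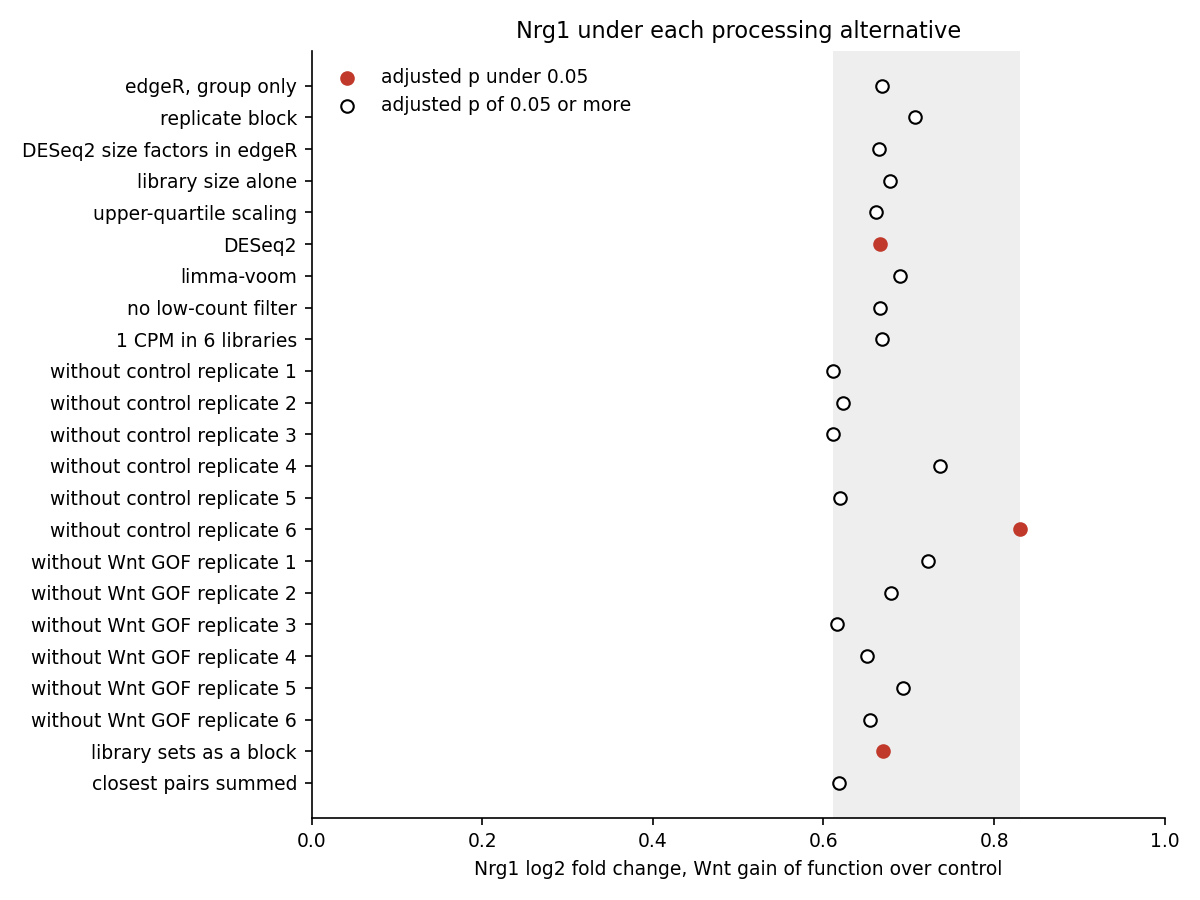
Log2 fold change of Nrg1, Wnt gain of function over control, in the edgeR fit with group alone and under 22 alternatives, filled red where the adjusted p was under 0.05; the grey band spans all values. All values lay between 0.61 and 0.83, and 3 were called, by DESeq2, without control replicate 6 and in the fit blocked on library set.

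The endocardium is the main source of Nrg1 in this tissue, so its markers stand beside this result. The sum of 10 endocardial and endothelial markers was 758 to 842 CPM in control and 826 to 896 CPM in Wnt gain-of-function libraries. Of the 10, 7 had a log2 fold change above 0, and the median was 0.126. EdgeR, DESeq2 and limma-voom called 0 of them, where they called 0.501%, 1.08% and 0.0406% of all tested genes. At an unadjusted p under 0.05 in edgeR there was 1, against 6.3% of all. Npr3, an endocardial natriuretic peptide receptor, was at 0.44 (edgeR adjusted p = 0.789). Blocked on library set, Npr3 stood at 0.42 and edgeR called it, as it did Nrg1 (adjusted p = 0.0257 for Npr3). It was then the 1 marker of the 10 called, where 2% of all genes were. The part of the endocardial cells in the Nrg1 values was not tested. On all libraries with group alone, Cdh5 and Pecam1, found in all endothelium, were at 0.00 and 0.03. Of the other markers, Plvap and Cytl1 were at 0.18, Emcn at 0.17, Tek at 0.16 and Tie1 at 0.09, with Kdr and Nfatc1 at -0.04. Blocked on library set, Nfatc1 was at -0.05 and was not called (edgeR adjusted p = 0.857), unlike Npr3. Relative to the sum of these markers within the same library, the log2 ratio of Nrg1 was -6.23 ± 0.40 in control and -5.63 ± 0.195 in Wnt gain-of-function libraries (SD, n = 6), a difference of 0.595. The groups overlapped through control 6, at -5.605, and control 4, at -5.852. Wnt gain-of-function libraries ran from -5.926 to -5.365. In bulk RNA, more cells of a type and more RNA per cell cannot be told apart. Counts per gene also do not separate the isoforms of Nrg1. A non-coding gene on the opposite strand, Gm26578, shares exonic bases with Nrg1 in GENCODE M21, but it had 44 counts over all libraries, against 2345 for Nrg1.

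Nrg2, a second neuregulin that binds ErbB3 and ErbB4, was close to the limit of detection. It had 0 to 2 counts in the control and 0 to 4 in the Wnt gain-of-function libraries, 5 and 16 counts in total. In 3 control libraries and 1 Wnt gain-of-function library it had 0 counts, which at these depths allows up to 0.185 to 0.265 CPM (3 counts, for counting error only). With no low-count filter, edgeR gave it an adjusted p of 0.812, and a difference was not detectable at this depth.

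Nrg4, a neuregulin that binds ErbB4, was low as well. It was at 2.92, 2.38, 2.41, 3.1, 2.72 and 3.28 CPM in control 1 to 6 and at 1.48, 2.64, 2.71, 2.55, 2.37 and 1.62 CPM in Wnt gain-of-function 1 to 6. The 2 lowest values stood in Wnt gain-of-function 1 and 6, and the other 4 were within or next to the control range. The log2 fold change was -0.33 ± 0.192 (95% interval -0.73 to 0.08, edgeR adjusted p = 0.957). Its exons overlap those of Fbxo22 on the opposite strand, a gene with 8225 counts in all against 409 for Nrg4. The strand setting of the counting is not given in the sources used here, so the level of Nrg4 is uncertain.

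Hbegf, the ligand shared by EGFR and ErbB4, overlapped between the groups. It was at 21.4, 20.03, 19.5, 23.2, 23.6 and 19.5 CPM in control 1 to 6 and at 18.1, 19.8, 28.6, 26.1, 20.9 and 22.6 CPM in Wnt gain-of-function 1 to 6. Its 2 highest values were in set 3 of the Wnt gain-of-function group. The log2 fold change was 0.10 ± 0.113 (95% interval -0.14 to 0.34, edgeR adjusted p = 0.999). Among the 4 ligands, Nrg1 had the largest fitted difference of the 3 that were tested.

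Erbb4, the neuregulin receptor of cardiomyocytes, had the lowest p of the receptors. It was at 50.1, 41.9, 39.9, 41.4, 38.9 and 38.8 CPM in control 1 to 6. In Wnt gain-of-function 1 to 6 it was at 28.0, 29.8, 33.9, 34.3, 45.4 and 38.7 CPM. Thus 5 of the 6 lay below the lowest control, 1 of them only just, and replicate 5, the library with Axin2 at the control level, lay among the controls. The means were 41.8 ± 4.24 and 35.0 ± 6.35 CPM (SD, n = 6), a log2 fold change of -0.26 ± 0.111 with a 95% interval from -0.49 to -0.02. It was not called (edgeR adjusted p = 0.699, unadjusted p = 0.0347).

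The Erbb4 difference varied with single libraries. It was -0.35 (edgeR adjusted p = 0.162) once replicate 5 of the Wnt gain-of-function group was left out, and without control 1, the highest library, it was -0.20 (0.943). Blocked on library set it was -0.27 ± 0.0802 (0.0913). With the closest pairs summed it was -0.19 (edgeR unadjusted p = 0.164), the smallest difference of the 22 alternatives. Both Wnt gain-of-function libraries lay below both controls in set 2 (28.9 against 40.9 CPM) and set 3 (34.1 against 40.2 CPM). As for Nrg1, the close pairs in these sets may not be separate samples. Set 1 had 42.1 against 44.5 CPM with overlap.

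Erbb2, the partner receptor without a ligand, was at 33.4, 31.5, 29.6, 38.3, 38.0 and 32.9 CPM in control 1 to 6 and at 23.1, 23.8, 36.3, 36.0, 32.05 and 33.7 CPM in Wnt gain-of-function 1 to 6. The 2 low values were Wnt gain-of-function 1 and 2, which are also 1 of the close pairs, and the other 4 libraries lay within the control range. The log2 fold change was -0.14 ± 0.122 (95% interval -0.40 to 0.12, edgeR adjusted p = 0.999). Blocked on library set it was -0.15 ± 0.0688, with a 95% interval from -0.30 to -0.01 that did not reach 0, and it was not called (adjusted p = 0.354). Within the sets, the log2 ratio was -0.38 in set 2 but -0.01 and -0.08 in sets 1 and 3.

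Erbb3, the receptor with an impaired kinase, was at 16.7, 10.3, 12.7, 16.7, 14.4 and 13.4 CPM in control 1 to 6. It was at 9.94, 10.6, 10.6, 11.2, 15.8 and 12.4 CPM in Wnt gain-of-function 1 to 6, where replicate 5 was again the highest. The log2 fold change was -0.26 ± 0.141 (95% interval -0.55 to 0.04, edgeR adjusted p = 0.927), and -0.36 without replicate 5 (0.391). Blocked on library set it was -0.26 ± 0.107, with a 95% interval from -0.48 to -0.03 that did not reach 0, and it was not called (adjusted p = 0.287). The deepest within-set difference was in set 3, at 15.6 against 10.9 CPM.

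Markers of the cells in which Erbb3 is best known stand beside it. Of 7 tested markers of cushion mesenchyme, 7 had a log2 fold change below 0, where 49.6% of all tested genes did, with a median of -0.137. EdgeR and DESeq2 called 0 of them, where they called 0.501% and 1.08% of all tested genes. At an unadjusted p under 0.05 in edgeR there were 0, against 6.3% of all. Their sum was 1160 to 1680 CPM in control and 1050 to 1350 CPM in Wnt gain-of-function libraries. Among neural crest and Schwann cell markers, Sox10 and Foxd3 were at or below 0.0825 CPM on average in either group, and the sum of 8 was 23.1 to 27.8 CPM in control and 18.6 to 26.9 CPM in Wnt gain-of-function libraries. The part of the cushion cells in the Erbb3 values was not tested. Of the other cell type markers, those of cardiomyocytes had a median log2 fold change of -0.048, of epicardium -0.038, of erythroid cells 0.053 and of macrophages 0.393, with 4 of 8 macrophage markers at an unadjusted p under 0.05, where 6.3% of all tested genes were, and 0 called in any of these lists by edgeR or DESeq2. The sum of the macrophage markers was 63.5 to 89.5 CPM in control and 65.3 to 113 CPM in Wnt gain-of-function libraries. That of the erythroid markers varied far more between libraries, at 6310 to 67500 CPM in control and 9300 to 85100 CPM in Wnt gain-of-function libraries. Hbb-y, a globin gene among them, was lowest in control 3, at 5180 CPM, and highest in Wnt gain-of-function 5, at 66600 CPM. The part of macrophages and of erythroid cells in the members' values was not tested.

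Egfr was the lowest of the receptors. It was at 6.55, 4.76, 5.45, 7.54, 7.45 and 7.24 CPM in control 1 to 6 and at 5.28, 4.75, 6.33, 6.44, 7.48 and 5.17 CPM in Wnt gain-of-function 1 to 6. The ranges nearly coincided, and the log2 fold change was -0.14 ± 0.156 (95% interval -0.47 to 0.19, edgeR adjusted p = 0.999).

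Of the 7 tested genes, 0 were called by edgeR, where 0.501% of the 14774 tested genes were. DESeq2 called 1, Nrg1, where it called 1.08% of all, and limma-voom called 0, where it called 0.0406% of all. At an unadjusted p under 0.05 there were 2, Nrg1 and Erbb4, where 6.3% of all tested genes reached this. In no member were the groups free of overlap, against 0.46% of all tested genes. The 4 receptors all had log2 fold changes below 0, from -0.26 to -0.14, as had 5 of the 7 tested members. Over all tested genes 49.6% lay below 0 and 50.4% above, and the median was 0.001, against -0.14 for the 7 members. Blocked on library set, edgeR called 1 of the 7, Nrg1, where 2% of all genes were called.

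**Figure D3:**
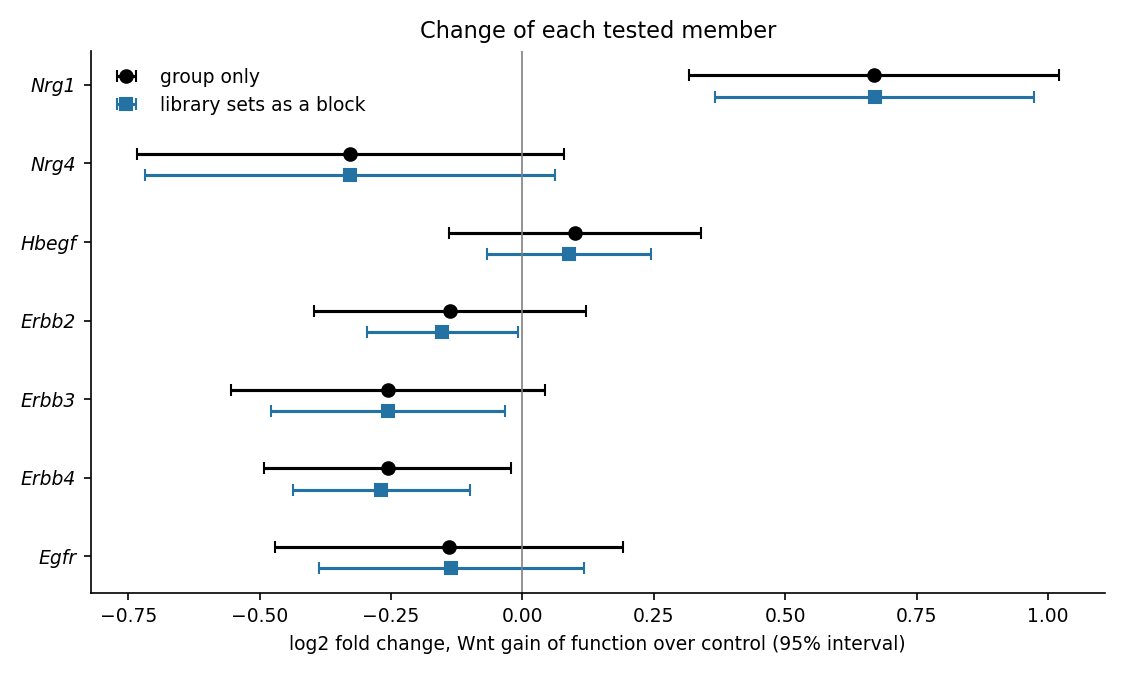
Log2 fold change of the 7 tested genes, Wnt gain of function over control, with 95% intervals, from edgeR with group alone (black circles) and blocked on library set (blue squares). With group alone the intervals of Nrg1 (0.32 to 1.02) and Erbb4 (-0.49 to -0.02) did not reach 0, although neither was called after adjustment. Blocked on library set, the intervals of Erbb2 (-0.30 to -0.01) and Erbb3 (-0.48 to -0.03) did not reach 0 either, and Nrg1 alone was called.

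Ratios between genes of the same library do not depend on how libraries are scaled. The log2 ratio of Nrg1 to Erbb4 counts was -2.50, -2.22, -2.18, -1.62, -2.15 and -1.23 in control 1 to 6. It was -0.97, -0.81, -0.71, -0.89, -1.52 and -1.08 in Wnt gain-of-function 1 to 6. The groups overlapped through control 6 and Wnt gain-of-function 5, and the means were -1.98 ± 0.467 and -0.997 ± 0.285 (SD, n = 6), a difference of 0.986. Against Erbb3 the mean log2 ratio of Nrg1 was -0.39 ± 0.431 in control and 0.58 ± 0.318 in Wnt gain-of-function libraries. Against Erbb2 it was -1.68 ± 0.392 and -0.81 ± 0.192, and there too the overlap came from control 6 and Wnt gain-of-function 5. These ratios were chosen with the values of Nrg1 and the receptors known and were not tested. The ratio of Hbegf to Egfr differed less, with log2 means of 1.72 ± 0.217 and 1.94 ± 0.263, and so did that of Erbb4 to Erbb2, with 0.30 ± 0.21 and 0.19 ± 0.235.

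**Figure D4:**
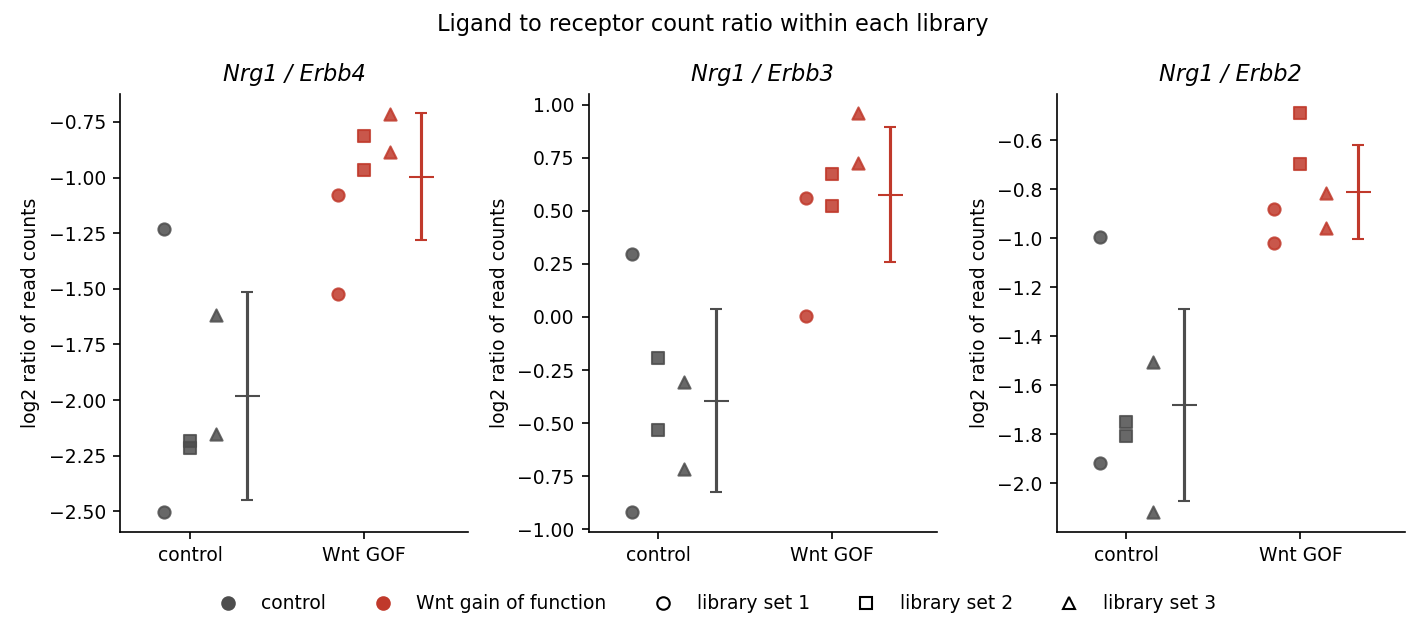
Log2 ratio of Nrg1 read counts to those of Erbb4, Erbb3 and Erbb2 in each library, by group and library set, with mean and SD (n = 6). In each panel the overlap between the groups comes from control 6, the highest control, and Wnt gain-of-function 5, the lowest of its group.

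To compare levels between genes, CPM was divided by the transcribed length, the union of all exons annotated for the gene in GENCODE M21. In control libraries the order in CPM per kilobase was Erbb2 (6.52 ± 0.672), Hbegf (4.38 ± 0.381), Erbb4 (3.39 ± 0.343), Erbb3 (2.33 ± 0.41), Nrg1 (1.05 ± 0.321), Egfr (0.574 ± 0.102), Nrg4 (0.461 ± 0.06) and Nrg2 (0.022 ± 0.0263, SD, n = 6). The ranges of neighbours overlapped for Hbegf and Erbb4 and for Egfr and Nrg4, although the gene named first was higher in 6 of 6 libraries in both cases. The Wnt gain-of-function libraries had the same order. There Nrg1, at 1.68 ± 0.216, came close to Erbb3, at 1.95 ± 0.354, with overlapping ranges and Erbb3 higher in 5 of 6 libraries. Control libraries had Erbb3 above Nrg1 in 6 of 6, by a log2 ratio of 1.18 ± 0.431, against 0.21 ± 0.318 in Wnt gain-of-function libraries. A union of exons overstates the length of genes with many isoforms, such as Nrg1, and so understates their level.

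Among the 7 tested members, deviations from the group means over the 12 libraries were most alike for Erbb2 and Hbegf (Pearson's r = 0.892, Spearman's rho = 0.944). By Pearson's r there followed Erbb3 with Egfr (0.728 and 0.664) and with Erbb4 (0.702 and 0.594), while by Spearman's rho Nrg1 with Nrg4 (0.539 and 0.692) came before both. Nrg1 and Erbb4, ligand and receptor, had an r of -0.08 and a rho of 0.133. Of 11227 genes whose log2 CPM averaged 2 or more, those most like Nrg1 were Erich1 (r = 0.916), Lsm4 (0.901) and Gde1 (0.896). For Erbb2 they were Rtn1 (0.985), Src (0.972) and Midn (0.972), for Erbb3 Kcnab1 (0.958), Adra2b (0.955) and Plin3 (0.938), and for Erbb4 Hipk2 (0.933), Epb41l5 (0.922) and Cecr2 (0.909). None of these 12 genes was called between the groups. The libraries share their sets and close pairs, which all such correlations contain, so they are given as descriptions.

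Further ligands of the EGF family were scarce. Of 7, 3 were tested and 0 called by edgeR or DESeq2, where these called 0.501% and 1.08% of all tested genes. Betacellulin, Btc, a ligand of EGFR and ErbB4, had a fitted log2 difference of -0.89 ± 0.337 (edgeR adjusted p = 0.542, unadjusted p = 0.0189). Its control libraries ran from 1.59 to 7.74 CPM and overlapped the Wnt gain-of-function libraries, at 1.18 to 3.17 CPM. The highest controls were 2 and 3, a close pair, at 7.74 and 4.82 CPM, and without control 2 the difference was -0.56 (adjusted p = 0.959, unadjusted p = 0.0682). Tgfa was at 0.15 (edgeR adjusted p = 0.999), and Areg, Ereg, Epgn and Nrg3 were under the filter, Nrg3 with 3 counts in 1 library and 0 in the other 11.

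Genes for the proteins that release, regulate and relay the signal had log2 fold changes in RNA from -0.33 to 0.27. Of 11 genes of ligand release, among them the sheddases Adam10 and Adam17, 0 were called and the median log2 fold change was -0.008. Adam15 was at -0.21 (adjusted p = 0.999) and Adam19, a protease that cleaves neuregulins, at -0.10 (0.999). Of 17 regulators of the receptors, 0 were called with a median of 0.022. Errfi1, a feedback inhibitor of ErbB kinases, was at -0.19 (0.953) and the ubiquitin ligase Cblb at -0.21 (0.946). Of 29 tested genes of signal transduction, 0 were called with a median of 0.033, with the GTPase Hras at 0.27 (0.925) and the adaptor Gab1 at -0.13 (0.923). In these 3 lists edgeR had 0 members at an unadjusted p under 0.05, against 6.3% of all tested genes, and DESeq2 called 0. Of all tested genes edgeR called 0.501% and DESeq2 1.08%, so counts of 0 called in such short lists say little.

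Genes induced through the ERK cascade, in which ErbB and FGF receptors both signal, lay mostly above 0. Of 17 tested, 15 had a log2 fold change above 0, where 7450 of all 14774 tested genes did, and the median was 0.208. Of the 17, 5 had an unadjusted p under 0.05, against 6.3% of all tested genes. EdgeR called 1 and DESeq2 1, against 0.501% and 1.08% of all. The called gene was Etv5, an ETS factor, which rose from 21.8 ± 3.28 to 38.1 ± 8.07 CPM (SD, n = 6), so that its log2 fold change was 0.81 (adjusted p = 0.0176 in edgeR). It overlapped only through Wnt gain-of-function 5, at 24.3 CPM against a highest control of 25.3 CPM. Its relative Etv4 was at 0.84 (adjusted p = 0.237), and Etv1, an ETS factor known to act downstream of neuregulin in the trabecular myocardium, had -0.05 (0.999). Limma-voom (adjusted p = 0.0565) and the closest pairs summed (0.271) did not call Etv5. What these genes respond to here, whether a receptor or another input, was not tested.

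Of 12 genes linked to trabeculation, which depends on neuregulin, edgeR called 0 and DESeq2 2, against 0.501% and 1.08% of all tested genes. At an unadjusted p under 0.05 there were 4, against 6.3% of all. Their median log2 fold change was 0.114, with 7 above 0 and 5 below. The lowest was Gja5, a connexin gene, at -0.35 (edgeR adjusted p = 0.946). The list was not confined to genes of the myocardium, and Etv1 stands in the ERK-response list as well. Slit2, a guidance ligand, was at 132 to 162 CPM in control and 164 to 215 CPM in Wnt gain-of-function libraries, without overlap (log2 fold change 0.39, edgeR adjusted p = 0.0569). Nppa, the atrial natriuretic peptide gene, had 0.52 (0.0842). Slit2 was called by edgeR without control 4 (0.0413), along with 0.455% of all genes. Without Wnt gain-of-function replicate 5, 3 of the 12 genes were called, where 1.19% of all were, among them Slit2 (0.0296) and Nppa (0.0132). Limma-voom called 0 of the 12, where it called 0.0406% of all tested genes. With the closest pairs summed, edgeR called neither Slit2 nor Nppa, and it called 0.00662% of all genes tested there. Over the 22 alternatives the adjusted p reached 0.403 for Slit2 and 0.641 for Nppa.

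**Figure D5:**
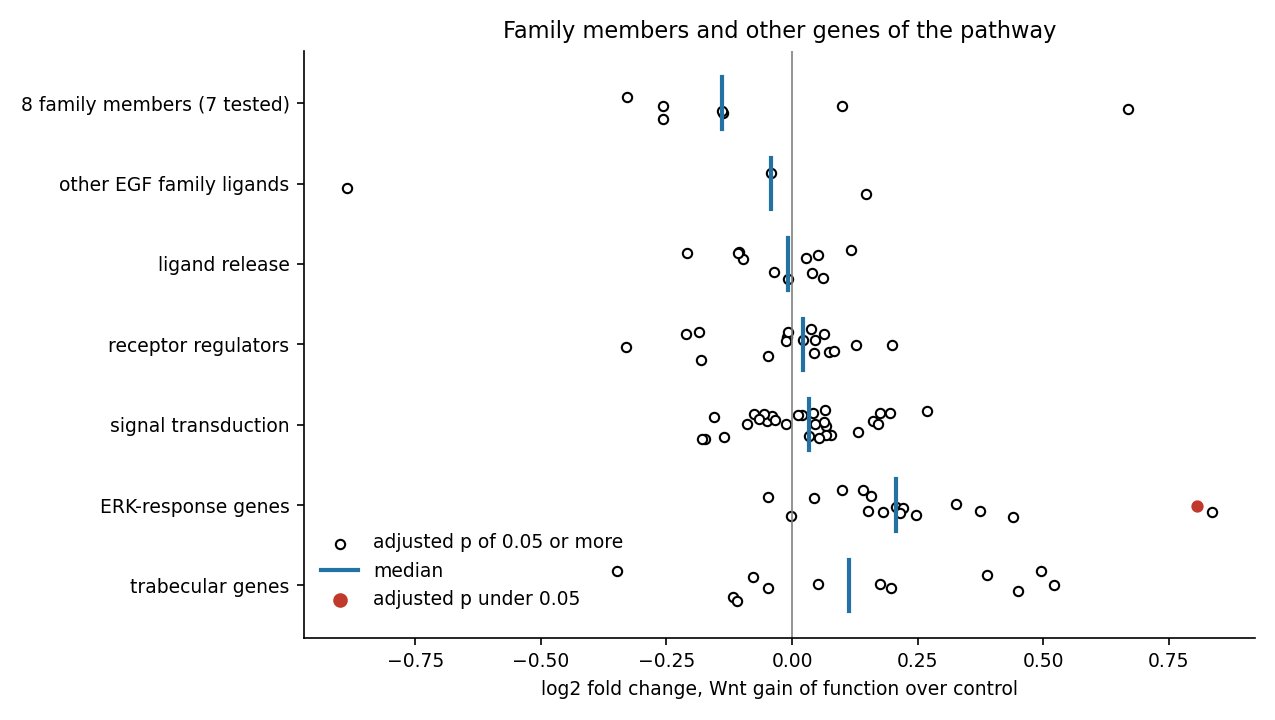
Log2 fold change, Wnt gain of function over control, of the tested genes of the family and of 6 lists of the pathway; each point is a gene, filled red where the edgeR adjusted p was under 0.05, and blue bars are medians. The receptor regulators and signal transduction genes centre near 0 (medians 0.022 and 0.033), while ERK-response genes centre at 0.208 with Etv5 called.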

How the data were processed

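The deposited table gives whole-number read counts per gene and library, per the file headers. The submitters' processing notes name Subread, featureCounts and edgeR. No build, annotation, strand setting or version is named (not given in the sources used here). Of 41422 rows, 622 repeat a gene with identical counts and were left out. The table of the authors' own comparison, also deposited, holds log2 fold changes and p-values, per the file headers, and is quoted only where named. Samples were grouped by the genotype label, and columns were matched to them by title.

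Counts were fitted in R 4.3.3 with edgeR 4.0.16 (filterByExpr, minimum count 10; TMM scaling; robust quasi-likelihood test with group alone), with Benjamini-Hochberg adjustment over 14774 genes and calls under 0.05. SE values were derived from the F statistic, and 95% intervals from the SE and the test's degrees of freedom. Alternatives were DESeq2 1.42.0, limma-voom (limma 3.58.1), other scalings and filters, each library left out, a block for replicate number or library set, and summing of the closest pairs. Sets were made by average linkage on correlations of deviations from the group means. Pairs were compared by chi-square over genes with 20 or more counts between them. Gene lengths came from GENCODE M21 (GRCm38).

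The 8 members and all gene lists were chosen with earlier results of these data known. Named were the members, each list's called genes and its 2 lowest p, the 3 genes most like Nrg1, Erbb2, Erbb3 and Erbb4, cell type markers and Axin2. Etv1, Gja5, Adam10, Adam17, Emcn, Tek, Tie1, Kdr, Nfatc1, Plvap, Cytl1 and genes under the filter were named after their values were seen. A cell type marker was left out of its list and is not reported here. On simulated counts (14613 genes tested) the test recovered 82% of genes raised and 84% of genes lowered by 1 on the log2 scale, and 4.84% of its calls were false. The simulation had no library sets.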

Additional observations from a re-analysis of the deposited data

Results flagged for a closer look

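Erbb4 in the control group had 1 library far from the other 5. Control 1 was at 50.1 CPM, and its gap to the next control, at 41.9 CPM, was 0.72 of the range of the group, above the 95% limit of Dixon's test for 6 samples. Of 16 groups of values checked in this way, 1 was flagged, and chance flags about 1 in 20. Without control 1 the log2 fold change of Erbb4 was -0.20 (edgeR adjusted p = 0.943), against -0.26 with all libraries.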

How the results depend on the processing

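Over 22 alternatives, the 7 tested members kept the sign of their log2 fold change in all, and only Nrg1 was ever called. Nrg1 was called by DESeq2 (log2 fold change 0.67), with the library sets as a block (0.67) and without control 6 (0.83), so that the count of called members was 1 in these 3 and 0 in the other alternatives; leaving out single libraries gave 0.61 to 0.83. The cause was not tested. Libraries of the 2 groups that carry the same replicate number were not paired, since their deviations correlated at anything from -0.377 to 0.463. With the replicate number as a block, Nrg1 had 0.71 (edgeR adjusted p = 0.0699), and 55 genes were called in all against 74. The count over all genes was 160 in DESeq2, 6 in limma-voom, 295 with the library sets as a block, 1 with the closest pairs summed, 10 at a threshold of 0.01, and 39 to 177 with single libraries left out, the last without Wnt gain-of-function 5. In the ERK-response list 2 were called with the library sets as a block and 0 by limma-voom or with pairs summed, against 1. In the trabecular list 2 were called by DESeq2, with no low-count filter or with the library sets as a block, and 0 to 3 with single libraries left out, against 0. Members under about 3 CPM rest on few counts, 19 to 53 per library for Nrg4 and 0 to 4 for Nrg2.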
